A study of Mus musculus with 82 samples.

Results

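The naive CD4 T cell is held in a resting, recirculating state by a small set of transcription factors. The set described here has 10 listed genes: Tcf7, Lef1, Klf2, Foxo1, Foxp1, Satb1, Bach2, Gata3, Zbtb7b and Runx1. Members were found by gene symbol in the platform annotation, and the probe set with the highest mean was read for each gene. 9 of the 10 had a probe set, 1 each, among 24922 probe sets and 19752 genes with a probe set of a single symbol. Tcf7 matched no probe set by symbol, gene identifier or accession and was not analysed here.

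These proteins divide the work of the resting T cell. Tcf7 (TCF1) and Lef1 bind DNA through a related HMG box and can pair with beta-catenin or with Groucho/TLE corepressors, Klf2 and Foxo1 drive the genes for homing receptors and survival, Foxp1 and Bach2 restrain activation, and Satb1 folds and organises chromatin. Gata3, Zbtb7b (ThPOK) and Runx1 take part in setting up the CD4 lineage in the thymus and are kept in the mature cell.

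The series profiled splenic T cells of male mice on 82 Affymetrix ST1.0 arrays. Cells were sorted by flow cytometry as naive CD3+CD4+ cells after gating out CD8, CD11c, CD25, CD49b, Gr1 and Ter119 among other markers, and mice were pooled before sorting. Arrays fell into 40 groups, 38 with 2 arrays, C57BL/6J with 5 and SWR/J with 1. The mice were otherwise unmanipulated, and the age is 6 weeks in the sample labels and 5 weeks in the series text, which also names bone marrow granulocytes where the sample labels name splenic T cells. The strains were 129S1/SvImJ, A/J, AKR/J, BALB/cByJ, BPL/1J, BTBR T+ tf/J, C3H/HeJ, C57BL/10J, C57BL/6J, C57BLKS/J, C57L/J, CAST/EiJ, CBA/CaJ, CBA/J, CE/J, DDY/JclSidSeyFrkJ, FVB/NJ, JF1/Ms, KK.Cg-Ay/J, LGJ, LP/J, MA/MyJ, MRL/MpJ, MSM/Ms, NOD/ShiLtJ, NON/ShiLtJ, NOR/LtJ, NZB/BINJ, NZW/LacJ, P/J, PL/J, PWD/PHJ, RIIIS/J, SEA/GnJ, SJL/J, SM/J, SWR/J and WSB/EiJ. The remaining 2 groups have titles and background labels that disagree: the background is given as CBA/CaJ where the title says C57BR, and as DBA/1LacJ where the title says DBA2. They are called C57BR-titled and DBA2-titled here.

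The array medians lay between 102 and 142 intensity units. C57BL/6J replicate 5 held the 142, and the next highest was 123 in CAST/EiJ replicate 2. The T cell marker list had array means of 11.5 to 11.9 on the log2 scale, with 8 of its 10 genes matched, and the B cell, neutrophil and erythroid lists had median array means of 5.63, 5.43 and 6.09. PL/J replicate 2 stood apart with array means of 8.79, 7.36 and 7.44 for those lists, and A/J replicate 2 had 7.35 for B cells and 7.28 for erythroid cells. Without both arrays all 9 members still passed the test for strain variation, and 25 single-strain calls were made for them against 24 with every array. In these bulk samples, fewer cells of a type and less RNA per cell cannot be told apart. The series text calls the arrays of a strain biological replicates, and the p-values rest on the spread between them.

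The promoters are shown first because several members encode factors whose motifs can be read in them. The RefSeq table for GRCm38.p6 held 22 start-site windows for the 10 genes, and the 250 bases before each start were searched on both strands. CTTTGNT, the core letters bound by TCF1 and LEF1, occurred in 16% of 32851 windows of the same length and in 4 of the members' 22, all in Foxp1 and Satb1. The 250 bases before an internal Foxp1 start (chr6:99266516-99266765, minus strand) and before an internal Satb1 start (chr17:51812185-51812434, minus strand) are printed 5′ to 3′ with this motif in capitals, because these are the windows where it lay closest to the start. The Lef1 window (chr3:131110047-131110296, plus strand) is printed with GGGNGNGG or its reverse complement in capitals, a GC-box form that KLF and SP proteins can bind.
Foxp1: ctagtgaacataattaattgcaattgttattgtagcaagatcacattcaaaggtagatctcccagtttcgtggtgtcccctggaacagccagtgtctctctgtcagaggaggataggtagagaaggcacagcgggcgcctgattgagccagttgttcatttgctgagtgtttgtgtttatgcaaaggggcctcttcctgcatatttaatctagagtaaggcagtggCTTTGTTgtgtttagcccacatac
Satb1: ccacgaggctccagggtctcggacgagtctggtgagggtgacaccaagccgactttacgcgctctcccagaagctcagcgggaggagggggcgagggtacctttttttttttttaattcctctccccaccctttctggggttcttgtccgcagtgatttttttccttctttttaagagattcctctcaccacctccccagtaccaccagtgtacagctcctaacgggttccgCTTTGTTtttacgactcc
Lef1: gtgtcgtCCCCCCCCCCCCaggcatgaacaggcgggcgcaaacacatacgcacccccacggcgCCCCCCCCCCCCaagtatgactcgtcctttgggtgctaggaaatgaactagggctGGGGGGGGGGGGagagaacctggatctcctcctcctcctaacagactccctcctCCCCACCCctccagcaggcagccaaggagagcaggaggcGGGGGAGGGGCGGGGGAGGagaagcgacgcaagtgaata

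In Foxp1 the motif began 24 bases before the start, and in Satb1 it began 18 bases before it. The Lef1 window held 20 overlapping matches to GGGNGNGG, many of them inside runs of C or G. That motif was frequent everywhere, in 45.9% of all windows and in 19 of the members' 22. The ETS core CCGGAA, present in 12% of all windows, occurred in 1 window each of Bach2, Gata3, Runx1 and Tcf7. The RUNX core TGTGGT (14% of all windows) occurred only in a Zbtb7b window among these genes, and neither the GATA letters AGATAA (9.99%) nor the forkhead letters GTAAACA (3.17%) occurred in any of their windows. The 2 Satb1 windows overlap and share the same occurrence of CTTTGNT. No match to one motif overlapped a match to another in these windows. A match describes letters of the reference sequence.

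The first question was whether these genes differ between strains at all. Each of the 9 did, within a narrow range. The strain means of a member spanned 1.32-fold (Lef1) to 1.78-fold (Gata3) from the lowest to the highest of the 40 groups. All 9 passed limma's F-test across strains with Benjamini-Hochberg adjusted p-values between 0.000145 and 0.00973. That test called 47.6% of all probe sets, and 72.6% of the 14512 whose highest strain mean was above the median of all values, so a call is common among bright genes.

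The spread was small rather than absent. The standard deviation (SD) of the 40 strain means was 0.10 to 0.17 log2 units, with a median of 0.14 over the 9 members, against 0.14 over all probe sets and 0.17 over the bright ones. Of all probe sets 18.6% had a range of 2-fold or more between strains, and of the bright ones 27.5%, whereas no member did. 8 of the 9 SDs lay below the bright median, and that of Gata3 stood at percentile 51.8. A probe set can enter the bright set through 1 high strain, so that set favours variable probe sets. Among all probe sets the SDs of Bach2, Zbtb7b and Gata3 stood at percentiles 54.4, 57.1 and 67.1. Those of the other 6 stood between 9.28 (Lef1) and 49.4 (Klf2). The share of variance lying between strains (intraclass correlation) was 0.40 for Klf2 and up to 0.63 for Foxo1, with a median of 0.55 against 0.45 over the bright probe sets. The members were chosen partly for this narrow spread, and these values are a description. In the order of strains, neighbouring strains mostly lay closer than 1 replicate SD. The replicate SD was exceeded by 1 of the 39 steps for each of Foxp1, Bach2 and Zbtb7b, and by 0 of 39 for the other 6. With 40 means in order few steps can be that large, so this count says little about the spread.

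**Figure D1:**
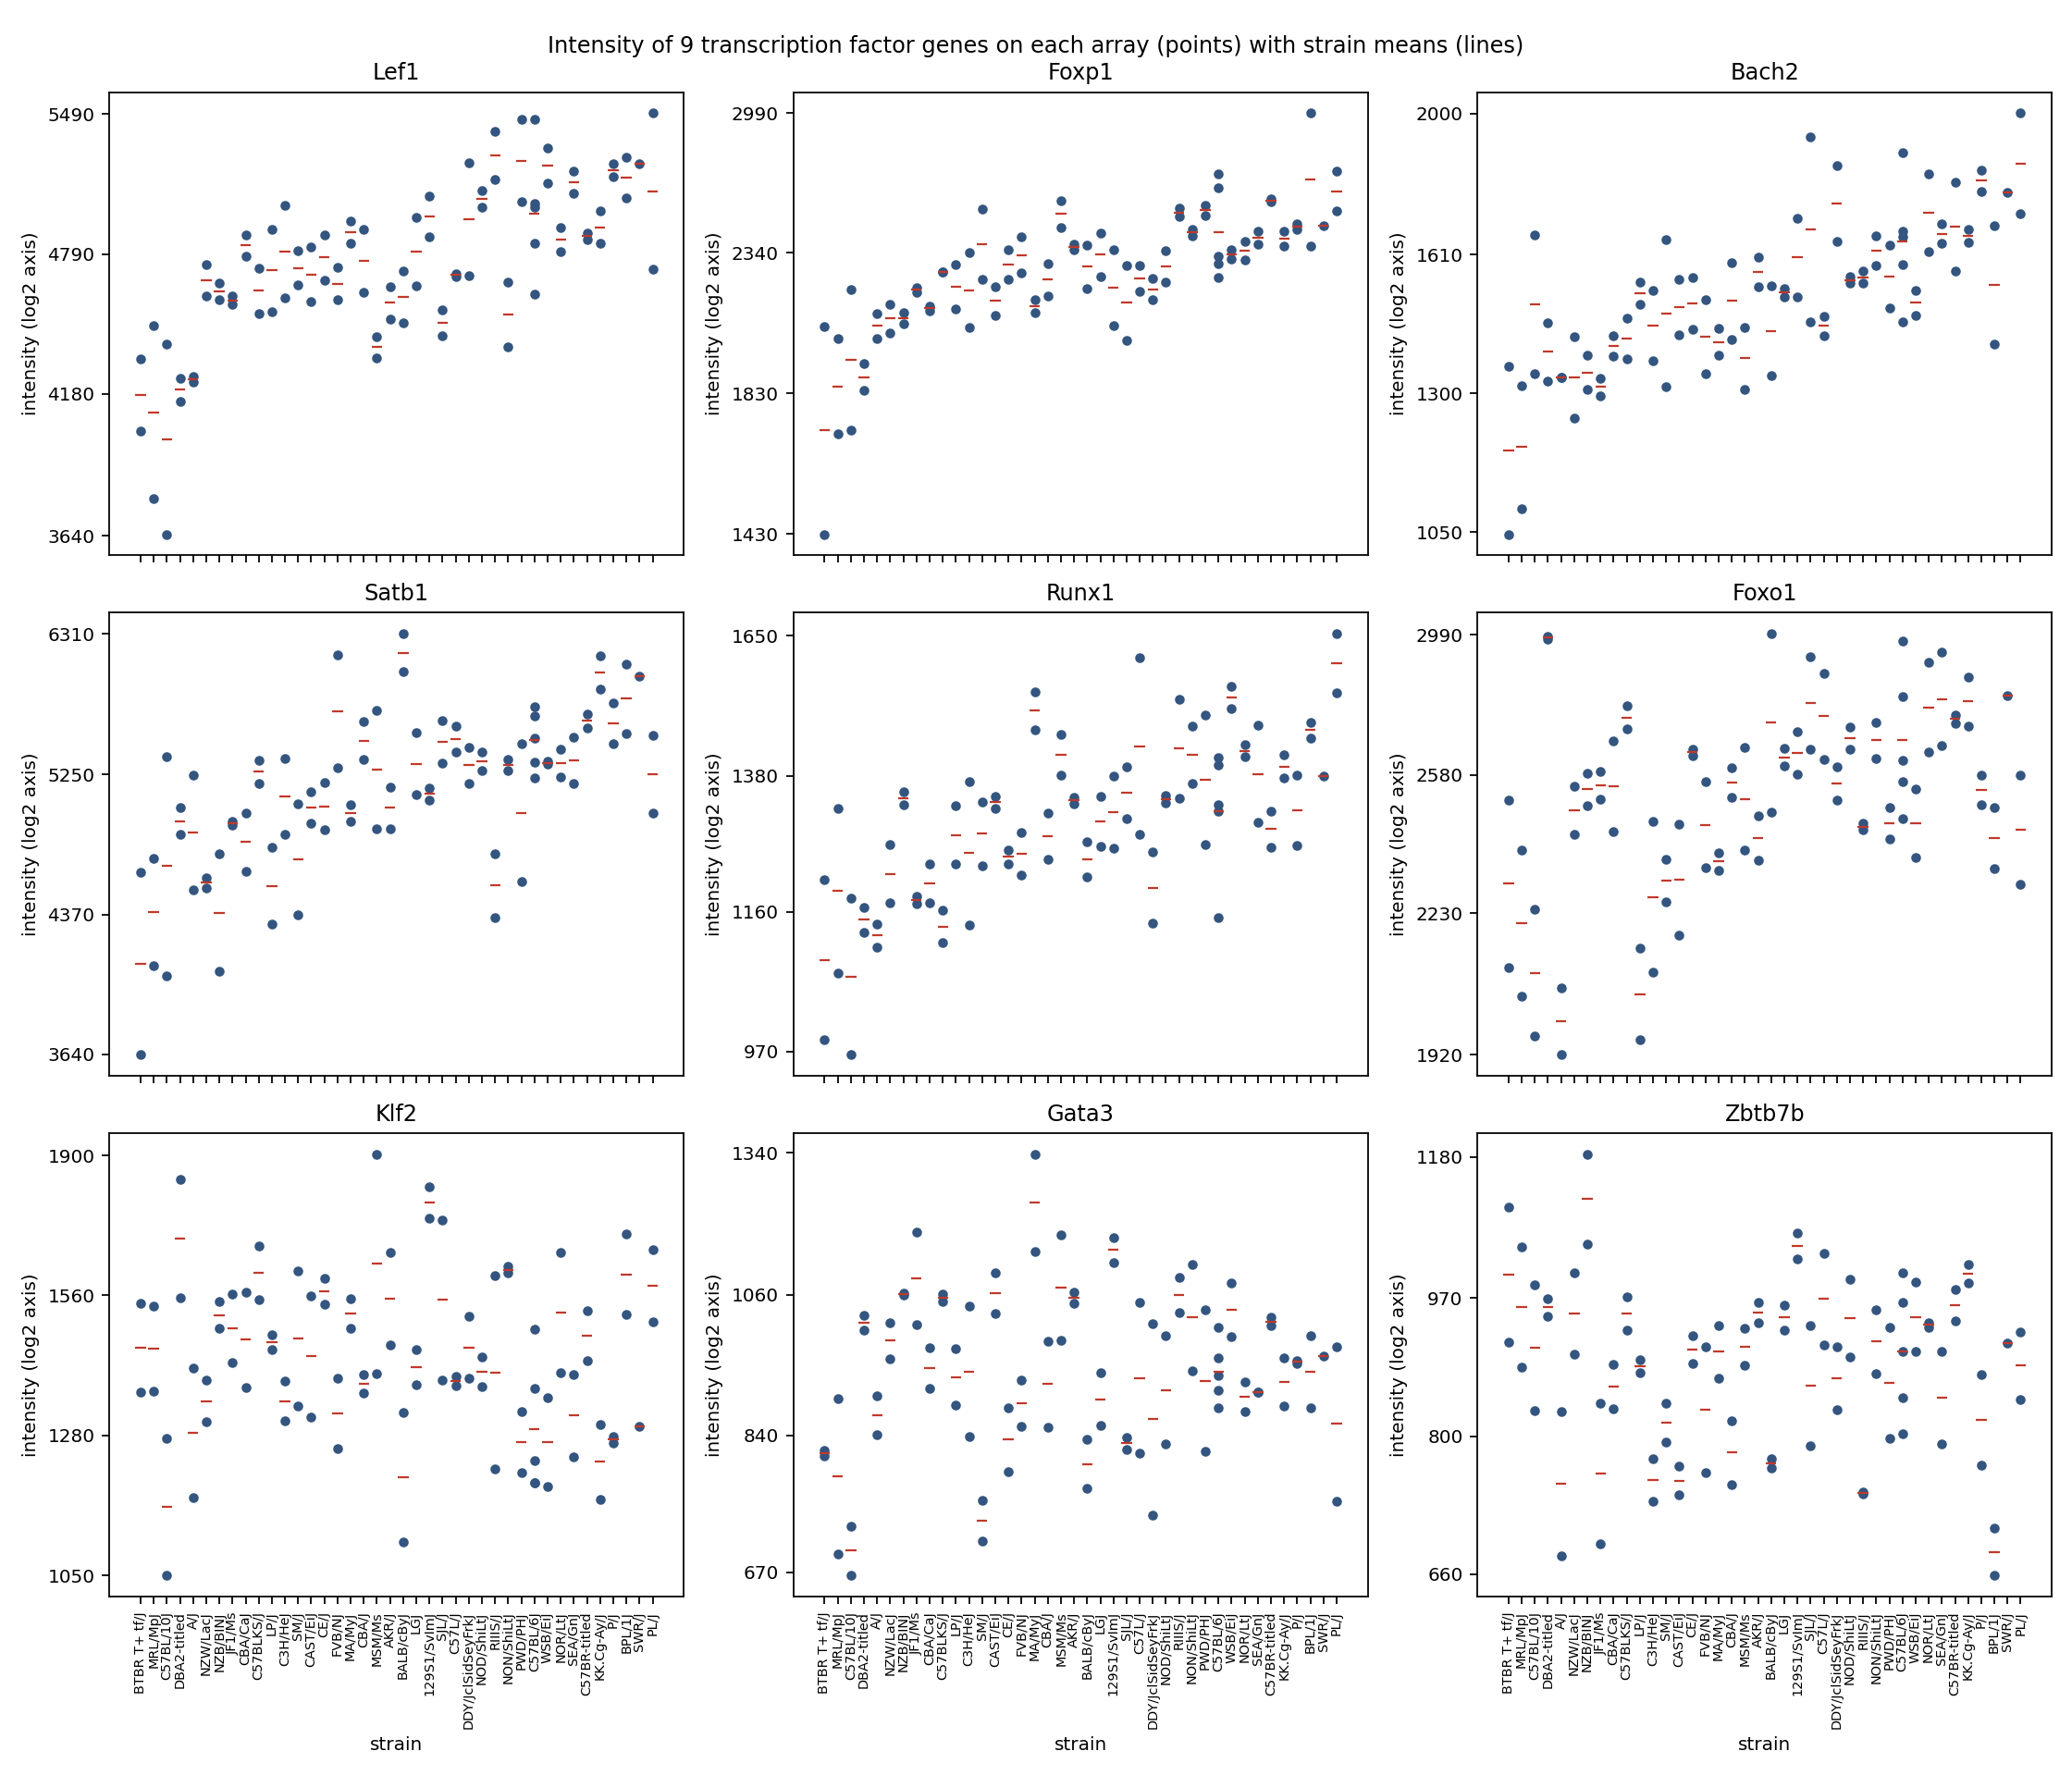
Intensity (log2 axis) of the 9 measured genes on each of 82 arrays, with strains on the horizontal axis in the same order in every panel, from low to high mean of Lef1, Foxp1, Bach2, Satb1 and Runx1. Points are arrays and red lines are strain means; the lowest Foxp1, Satb1 and Bach2 points are the same array, BTBR T+ tf/J replicate 2.

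Each strain was next set against the mean of the other 39, contrasts in which limma called 6.06% of all 996880 tests. The strains named for each gene were picked on these same values. Arrays of opposite ends that do not overlap are therefore a description. Lef1, the HMG-box relative of TCF1, was bright and the least variable member. Its intensity was 3644 on the lowest array, 4734 on the median array and 5494 on the highest. The SD of its strain means, 0.10, stood at percentile 4.32 among the bright probe sets. C57BL/10J was lowest, with arrays at 4385 and 3644, and MRL/MpJ was next with 4465 and 3774. At the other end were RIIIS/J with a strain mean of 5273 and PWD/PHJ with 5246. In both low strains 1 array was well below the other. Against the mean of the other strains, Lef1 was lower by limma in C57BL/10J (log2 difference -0.25, SE 0.063, adjusted p = 0.00594) and in MRL/MpJ (-0.21, SE 0.063, adjusted p = 0.0262). Without C57BL/10J replicate 3 the first difference was -0.12 (adjusted p = 0.543 by limma), and without MRL/MpJ replicate 2 the second was -0.09 (adjusted p = 0.672).

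Klf2 encodes the zinc-finger factor that switches on the egress receptor gene S1pr1. It ran from 1050 to 1904 with a median array of 1398, and its replicate arrays differed more than those of any other member (replicate SD 0.133, against 0.130 for Gata3). 129S1/SvImJ was highest with arrays at 1738 and 1819, and C57BL/10J was lowest with 1050 and 1274. The 129S1/SvImJ arrays were close together near the top of the panel, and the single highest array belonged to MSM/Ms, whose other array read 1397. Klf2 was higher in 129S1/SvImJ by 0.32 (SE 0.097, adjusted p = 0.0329, limma) and lower in C57BL/10J (-0.31, adjusted p = 0.0413). Neither call held with a single array of the strain in every case: leaving out 129S1/SvImJ replicate 1 gave 0.36 (limma adjusted p = 0.138), leaving out its replicate 2 gave 0.29 (0.275), and leaving out C57BL/10J replicate 1 gave -0.17 (0.595).

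Foxo1, the forkhead factor upstream of Klf2 and Il7r, had the highest share of variance between strains. Its arrays ran from 1920 to 2994 around a median of 2556. A/J read 1920 and 2062, LP/J 1951 and 2148, and C57BL/10J 2238 and 1958. The DBA2-titled pair was high and tight at 2986 and 2976. These 2 ends did not overlap. Foxo1 was lower by limma in A/J (-0.35, SE 0.072, adjusted p = 0.000773), LP/J (-0.31, adjusted p = 0.00382) and C57BL/10J (-0.27, adjusted p = 0.012), and higher in the DBA2-titled group (0.25, adjusted p = 0.0236). With 1 array left the A/J difference was -0.30 without replicate 1 (limma adjusted p = 0.0711) and -0.40 without replicate 2, the array with high B cell and erythroid lists (0.00816). The LP/J difference was -0.24 without replicate 1 (0.205), and the C57BL/10J difference was -0.18 without replicate 3 (0.403). The DBA2-titled difference was 0.25 without replicate 1 (0.173) and without replicate 2 (0.158).

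Foxp1, a forkhead repressor that keeps naive T cells quiescent, ran from 1429 to 2988 with a median array of 2291. BTBR T+ tf/J held the lowest array, 1429, while its other array read 2056. MRL/MpJ read 2012 and 1703, and the DBA2-titled arrays read 1838 and 1928. The highest strain, BPL/1J, was itself split, with 2368 and 2988. Foxp1 was lower by limma in BTBR T+ tf/J (-0.41, SE 0.082, adjusted p = 0.000438), MRL/MpJ (-0.29, adjusted p = 0.0174) and the DBA2-titled group (-0.27, adjusted p = 0.0341). Without BTBR T+ tf/J replicate 2 the difference was -0.15 (limma adjusted p = 0.544), and without MRL/MpJ replicate 2 it was -0.17 (0.483). The DBA2-titled difference was -0.24 without replicate 1 (0.292) and -0.30 without replicate 2 (0.124).

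Bach2 encodes a repressor that competes at AP-1 sites and holds back effector genes. Its arrays ran from 1047 to 2001 with a median of 1516. BTBR T+ tf/J read 1355 and 1047, MRL/MpJ 1316 and 1089, and PL/J 2001 and 1713. The low strains and PL/J did not overlap, and replicate 2 was the lower array in both low strains. By limma Bach2 was lower in BTBR T+ tf/J (-0.35, SE 0.091, adjusted p = 0.0105) and MRL/MpJ (-0.34, adjusted p = 0.0129) and higher in PL/J (0.30, adjusted p = 0.031). Without the second BTBR T+ tf/J array the difference was -0.16 (limma adjusted p = 0.596), without the second MRL/MpJ array -0.20 (0.45), and without PL/J replicate 1 it was 0.19 (0.494). Without PL/J replicate 2, the array with high B cell, neutrophil and erythroid lists, the PL/J difference was 0.42 (0.037).

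Satb1, the chromatin organiser, was bright, from 3638 to 6312 with a median array of 5228. BTBR T+ tf/J was lowest with 4620 and 3638, followed by NZB/BINJ with a strain mean of 4382. BALB/cByJ was highest with 6312 and 6005, and KK.Cg-Ay/J followed with a mean of 5999. Satb1 was lower in BTBR T+ tf/J (-0.34, SE 0.079, adjusted p = 0.00342, limma) and higher in BALB/cByJ (0.27, adjusted p = 0.0297). The first was -0.16 without replicate 2 (limma adjusted p = 0.492). The second was 0.23 without replicate 1 (0.286) and 0.30 without replicate 2 (0.109).

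Runx1, the DNA-binding partner of Cbfb, ran from 966 to 1654 with a median array of 1321. C57BL/10J read 1180 and 966, BTBR T+ tf/J 1208 and 985, and PL/J 1654 and 1535. All 4 low arrays lay below both PL/J arrays. By limma Runx1 was lower in C57BL/10J (-0.30, SE 0.079, adjusted p = 0.0126) and BTBR T+ tf/J (-0.26, adjusted p = 0.031), and higher in PL/J (0.30, adjusted p = 0.012). Without C57BL/10J replicate 3 the difference was -0.15 (limma adjusted p = 0.552), without BTBR T+ tf/J replicate 2 it was -0.12 (0.689), and without PL/J replicate 1 it was 0.24 (0.239).

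Gata3, the zinc-finger factor of CD4 lineage choice and Th2 cells, varied most of the 9. Its arrays ran from 667 to 1337 with a median of 952. C57BL/10J read 723 and 667 and SM/J 705 and 754, while MA/MyJ read 1337 and 1138. Here both arrays of each strain lay on the same side of the panel. Gata3 was lower by limma in C57BL/10J (-0.44, SE 0.096, adjusted p = 0.00129) and SM/J (-0.37, adjusted p = 0.0096) and higher in MA/MyJ (0.41, adjusted p = 0.00332). These calls were lost in fits with 1 array of the strain: the difference was -0.38 in C57BL/10J without replicate 3 (limma adjusted p = 0.0847), -0.32 in SM/J without replicate 1 (0.182) and -0.42 without replicate 2 (0.0537), and 0.29 in MA/MyJ without replicate 1 (0.248).

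Zbtb7b, the factor that commits thymocytes to the CD4 fate, ran from 659 to 1185 with a median array of 900.0. BPL/1J was lowest with 703 and 659, and NZB/BINJ highest with 1185 and 1046. The 2 pairs lay at opposite ends, with RIIIS/J next to the bottom at a mean of 739 and 129S1/SvImJ next to the top at 1043. Zbtb7b was lower in BPL/1J (-0.38, SE 0.084, adjusted p = 0.00159, limma) and higher in NZB/BINJ (0.35, adjusted p = 0.00519). Both calls were lost with 1 array left: the difference was -0.34 in BPL/1J without replicate 2 (limma adjusted p = 0.0913) and 0.26 in NZB/BINJ without replicate 1 (0.256).

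Together the members gave 24 calls in 360 tests of a gene in a strain, 6.67%, of which 17 were lower and 7 higher. Over all probe sets the same contrasts called 6.06%, with 2.98% lower and 3.08% higher, and over the bright ones 9.44%. The members' share was therefore near the background. The calls fell in 13 of the 40 strains. With each array centred on its median 14 calls were made, 11 of them lower, and 12 of the 24 were kept. 9 of the 24 calls were kept under every planned setting other than leaving out an array: Foxo1 in LP/J, Foxp1 and Satb1 in BTBR T+ tf/J, Gata3 in C57BL/10J and MA/MyJ, Lef1 and Runx1 in C57BL/10J, and Zbtb7b in BPL/1J and NZB/BINJ.

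**Figure D2:**
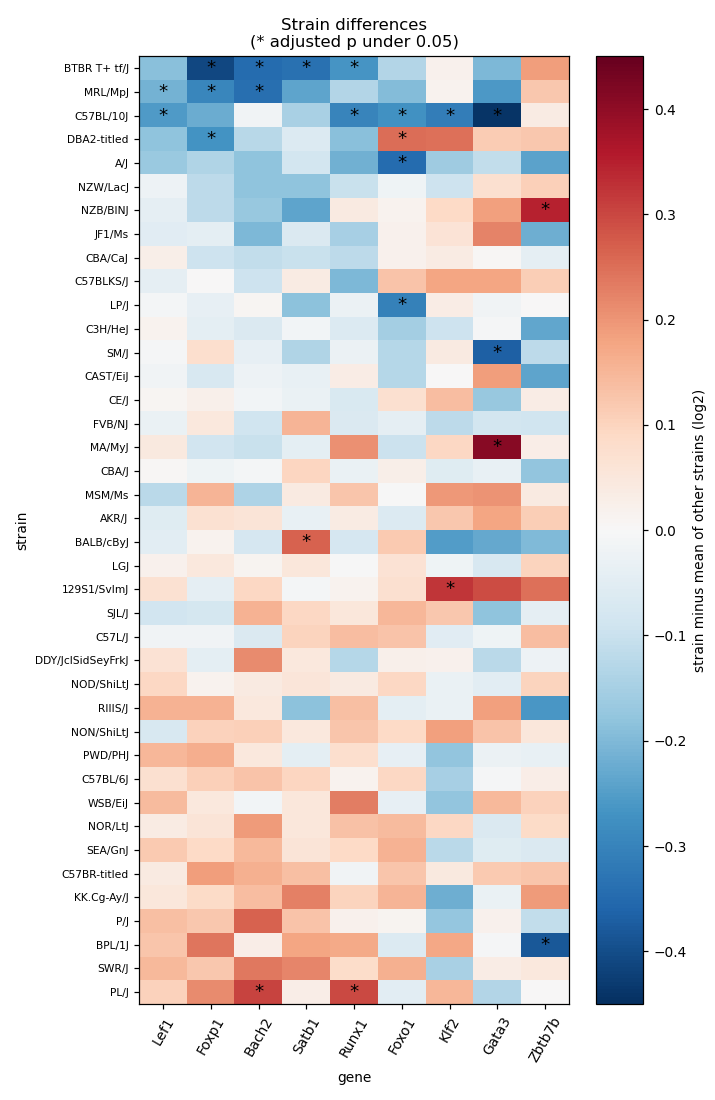
Difference of each strain from the mean of the other 39 (log2 units, colour scale), with 40 strains in rows and 9 genes in columns; a star marks a limma adjusted p under 0.05. The 24 stars include 5 in C57BL/10J, 4 in BTBR T+ tf/J and 3 in MRL/MpJ, all lower.

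Several members were low together in 3 strains. C57BL/10J had 5 of the 9 called lower (Lef1, Klf2, Foxo1, Gata3 and Runx1), where 3.05% of all probe sets and 5% of the bright ones were called lower in that strain. BTBR T+ tf/J had 4 (Foxp1, Satb1, Bach2 and Runx1), with 6.29% and 10.6% as the corresponding shares, and MRL/MpJ had 3 (Lef1, Foxp1 and Bach2), with 4.75% and 7.68%. The median difference over the 9 members was -0.25, -0.20 and -0.21 in these strains. A/J lay below the others in 9 of 9 members, with a median difference of -0.17, but only Foxo1 was called there.

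In each of the 3 strains 1 array was low in several members. Klf2 in C57BL/10J did not follow that array and was lower on replicate 1 (1050) than on replicate 3 (1274). Gata3 was low on both C57BL/10J arrays, and its value on replicate 3, 667, was the lowest of the 82 arrays. C57BL/10J replicate 3 was among the 3 lowest of the 82 arrays in 6 of the 9 members, and BTBR T+ tf/J replicate 2 and MRL/MpJ replicate 2 were so in 5 each. In that order their array medians were 114, 117 and 117 against 113 for the median array, and their B cell list means were 5.64, 5.70 and 5.81 against 5.63. In the same order (C57BL/10J, BTBR T+ tf/J, MRL/MpJ), the T cell list means were 11.59, 11.61 and 11.74 against 11.75, the neutrophil means 5.55, 5.52 and 5.66 against 5.43, the platelet means 5.59, 5.69 and 5.91 against 5.62, and those of the other resting T cell factors 9.86, 9.94 and 9.77 against 9.94. The platelet mean of MRL/MpJ replicate 2 was the second highest of the 82 arrays. The part of these lists in the low values was not tested. Without these 3 arrays, a setting chosen after seeing the data, 21 member calls were made, 10 of them lower. Of the 12 low calls in the 3 strains, 11 were lost, with Klf2 in C57BL/10J as the exception. Foxp1 in BTBR T+ tf/J was then -0.15 (limma adjusted p = 0.44), Lef1 in C57BL/10J -0.12 (0.477), Bach2 in MRL/MpJ -0.21 (0.373) and Gata3 in C57BL/10J -0.39 (0.0674). All 9 members still passed the F-test across strains.

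The next comparison set the 4 strains of largely non-domesticus origin (JF1/Ms, MSM/Ms, PWD/PHJ and CAST/EiJ) against the other 36, with the strain mean as the replicate. No member was called by limma, 0 of 9 at adjusted p under 0.05 and 0 of 9 at an unadjusted p under 0.05, where 8.73% and 19.5% of all probe sets passed. Gata3 came nearest. Its arrays read 817 to 1033 in PWD/PHJ, 1027 to 1098 in CAST/EiJ, 983 to 1170 in MSM/Ms and 1008 to 1175 in JF1/Ms, against a panel median of 952. The difference was 0.16 log2 units (95% interval -0.02 to 0.33, adjusted p = 0.324, limma over 40 strain means). Zbtb7b differed by -0.12 (interval -0.28 to 0.04) and Bach2 by -0.09 (-0.24 to 0.07). Lef1 differed by -0.01, with an interval of -0.12 to 0.10, the narrowest of the 9.

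The members were then compared with one another over the 40 strain means. Of 36 pairs, 13 were correlated at a Benjamini-Hochberg adjusted permutation p under 0.05, and 10 of the 13 pairs lay within Lef1, Foxp1, Bach2, Satb1 and Runx1. All pairs of these genes passed, and the group was picked on these same values, so it is a description. Lef1 and Foxp1 had the highest Pearson r, 0.74 (adjusted p = 7.2e-05, unadjusted p 1e-05, the smallest that 100000 permutations can give; Spearman rho 0.64). It was 0.67 without C57BL/10J and MRL/MpJ, the strains farthest from the Lef1 median. Foxp1 with Runx1 had r = 0.69 and with Bach2 0.68, and Lef1 with Runx1 0.66 and with Bach2 0.65. Foxp1 with Satb1 had 0.63 and Satb1 with Bach2 0.60. The lowest of the 10 were Bach2 with Runx1 (0.53), Lef1 with Satb1 (0.44) and Satb1 with Runx1 (0.40). Correlations of this size were uncommon for some pairs and common for others. Of the bright probe sets 0.0482% were at least as correlated with Lef1 as Foxp1 was, and the share was 0.503% to 2.18% for 6 of the other pairs, 6.38% for Satb1 with Bach2, 7.69% for Lef1 with Satb1 and 16.1% for Satb1 with Runx1.

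Outside that group, Foxo1 was correlated with Satb1 (r = 0.57, rho 0.60) and Bach2 (r = 0.39). Klf2 and Gata3 had r = 0.42 (adjusted permutation p = 0.0249), and the adjusted p of rho was 0.111. It was weaker, r = 0.24, without 129S1/SvImJ and C57BL/10J, the 2 strains farthest from the Klf2 median. In 7 other settings r was 0.40 to 0.49, with adjusted permutation p-values of 0.00438 to 0.0416. Among the 7, the mean of all probe sets of a gene left both genes' values as they were, because each has a single probe set. Zbtb7b was in none of the 13 pairs with every array in the analysis. Its values ran from -0.27 with Foxp1 to 0.31 with Foxo1.

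Most of these pairs were also correlated between replicate arrays of one strain. After each strain's mean was subtracted, the 81 arrays of strains with more than 1 array gave r = 0.73 for Lef1 and Foxp1, 0.76 for Foxp1 and Bach2, 0.62 for Foxp1 and Runx1 and 0.62 for Foxp1 and Satb1. Pairs of Satb1 were lower, with 0.47 for Bach2, 0.45 for Lef1 and 0.34 for Runx1, values that 20.5%, 7.46% and 28.7% of bright probe sets reached or exceeded, against 0.0689% for Lef1 and Foxp1. In a strain with 2 arrays the 2 deviations are mirror images. The 81 points are therefore not independent and hold 42 residual degrees of freedom, and no test was made of them. Lef1 and Gata3 had 0.64 between replicate arrays and 0.30 between strains. Leaving out the C57BL/10J, BTBR T+ tf/J and MRL/MpJ arrays left 0.68 for Lef1 and Foxp1 and 0.67 for Foxp1 and Bach2 over 75 arrays, but 0.25 for Satb1 and Bach2, 0.19 for Lef1 and Satb1 and 0.01 for Satb1 and Runx1. How far variation between arrays enters the correlations of strain means was not tested. Without the 3 low arrays 11 pairs passed, with r of 0.27 for Lef1 and Satb1 (adjusted p = 0.226), 0.27 for Foxo1 and Bach2 (0.226) and 0.21 for Satb1 and Runx1 (0.351), which no longer passed. Foxo1 and Zbtb7b passed in that setting (r = 0.40, adjusted p = 0.0323). With arrays centred on their medians 20 pairs passed, Foxo1 and Zbtb7b among them (r = 0.44, adjusted p = 0.00945).

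**Figure D3:**
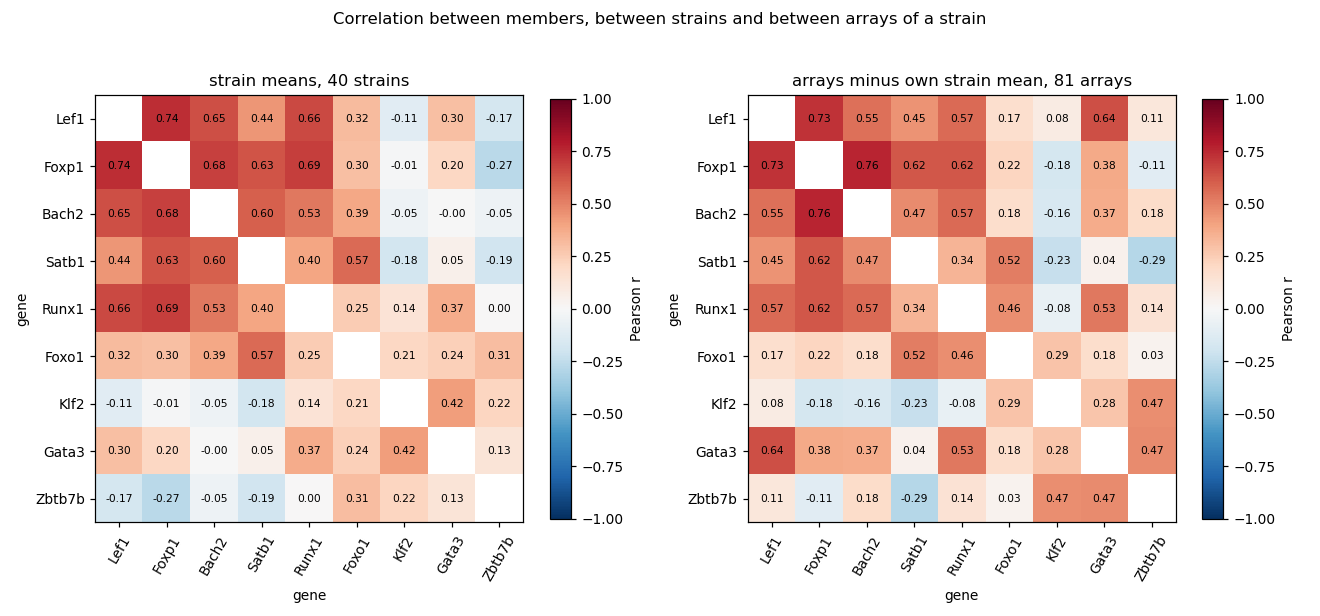
Pearson r for each pair of the 9 genes, over 40 strain means (left) and over 81 arrays after subtraction of the strain mean (right). On the right the points are not independent, because paired arrays of a strain give mirror-image deviations. The block of Lef1, Foxp1, Bach2, Satb1 and Runx1, picked on the values on the left, is positive in both, from 0.40 to 0.74 on the left. Lef1 with Gata3 reads 0.30 on the left and 0.64 on the right.

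**Figure D4:**
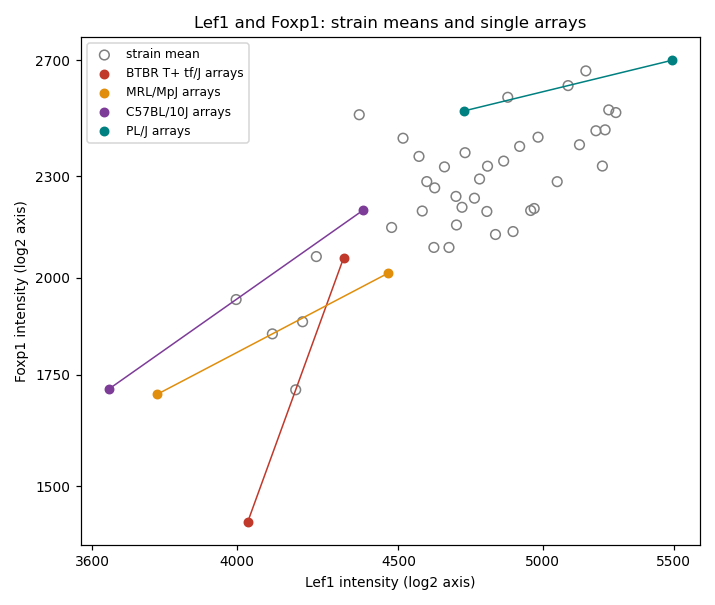
Lef1 against Foxp1 intensity (log2 axes): grey circles are 40 strain means, and coloured points joined by lines are the 2 arrays of BTBR T+ tf/J, MRL/MpJ, C57BL/10J and PL/J. In each of these 4 strains the array with less Lef1 also has less Foxp1, for example 3774 with 1703 and 4465 with 2012 in MRL/MpJ.

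For each of the 9, some genes outside the set had a higher correlation than any other member did. Among 8249 bright genes that passed the F-test, those most alike in strain means were Wasl (r = 0.76) and Tnrc6c (0.75) for Lef1, Ylpm1 and Armc8 (0.84 each) for Foxp1, Kdm5a and Usp34 (0.84 each) for Satb1, and Zbtb20 and Tnrc6b (0.71 each) for Bach2. For Runx1 they were Fam193a (0.78) and Crebbp (0.75), for Zbtb7b Midn and Fmnl1 (0.79 each), and for Gata3 Nfatc3 and Ppp4r1 (0.70 each). Foxo1 was most like Zbtb34 (0.63) and Pigo (0.61), and Klf2 most like Lfng (0.60) and Pim1 (0.57). The likeness is over 40 strain means and was searched for, so it has no test.

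Because the sort was for naive cells and removed CD25+ cells, the members were also set against lists of genes of activated or memory T cells and of regulatory T cells. No relation passed, 0 of 18 at an adjusted permutation p under 0.05 and 2 at an unadjusted p under 0.05. Gata3 against the activated list had r = 0.42 (rho 0.41, unadjusted permutation p = 0.00655, adjusted p = 0.118, and r = 0.34 without JF1/Ms and MSM/Ms). With arrays centred on their medians that relation had r = 0.51 and an adjusted permutation p of 0.0157. Foxp1 against the regulatory list had r = -0.34 (rho -0.36, unadjusted permutation p = 0.0307, adjusted p = 0.276).

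Genes related to the members by family, partnership or regulation were read in the same way. The F-test called 47.6% of all probe sets and 72.6% of the bright ones, so most counts below are not far from a common share. The A/J and PL/J means include their replicate 2 arrays, which had high B cell and erythroid lists. Among the family relatives 18 of 20 were measured and 11 passed the F-test by limma. Foxp3, the regulatory T cell member of the Foxp family, ran from a strain mean of 248 in JF1/Ms to 926 in 129S1/SvImJ. Klf6 was highest in MSM/Ms (790) and lowest in BTBR T+ tf/J (325), Gata1 ran from 77.0 in NZW/LacJ to 177 in MRL/MpJ, and Runx3, the CD8 lineage counterpart of Runx1, from 683 in BALB/cByJ to 1355 in CAST/EiJ. In the non-domesticus strains Foxo4 was lower (-0.24, limma adjusted p = 0.0135) and Tcf7l1 higher (0.18, adjusted p = 0.0465). Tcf7l1 had a mean intensity of 94.9 and did not pass the F-test across strains (limma adjusted p = 0.722), and its replicate SD of 0.18 exceeded the SD of its strain means, 0.12.

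Of the binding partners and cofactors 12 of 14 were measured and 9 passed the F-test. Ctnnb1, the gene for beta-catenin, ran from 1211 in RIIIS/J to 2131 in MSM/Ms, and its adaptor Bcl9 from 541 in A/J to 1085 in KK.Cg-Ay/J. Bcl9l ran from 683 in C3H/HeJ to 1190 in MSM/Ms, and the corepressor gene Tle1 from 65.5 in MSM/Ms to 144 in MA/MyJ. None of the 12 was called between the non-domesticus strains and the rest, a comparison that called 8.73% of all probe sets.

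Of the genes listed as targets 15 of 16 were measured and 13 passed. The chemokine receptor gene Ccr7, a homing gene of naive cells, kept to a 1.37-fold range and S1pr1 to 1.48-fold. Il7r, the survival cytokine receptor gene, ran from 3031 in the DBA2-titled group to 6207 in the C57BR-titled group. Bcl2 ran from 1827 in PL/J to 3539 in P/J. In the non-domesticus strains Cd8b1 was lower by limma (-1.0, adjusted p = 4.2e-05) and so was Dapl1 (-3.21, adjusted p = 1.02e-06). Strain variants under the probes of these genes were not checked. Dapl1 read 67.9 in PWD/PHJ and 9733 in WSB/EiJ.

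Of the other transcription factors of resting T cells all 16 were measured and 13 passed the F-test. Their median SD between strains, 0.13, was like that of the members, though Myb ran from 162 in JF1/Ms to 522 in KK.Cg-Ay/J, Id3 from 145 in SWR/J to 457 in JF1/Ms, Ikzf3 from 704 in SWR/J to 1840 in 129S1/SvImJ and Tox from 709 in SM/J to 1249 in RIIIS/J. In the non-domesticus strains Ikzf1 was higher (0.18, limma adjusted p = 0.00562) and Myb lower (-0.59, adjusted p = 0.0456).

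Transcription factors of effector and memory T cells had a larger median SD, 0.22, with 11 of 14 measured genes past the F-test. Id2 ran from 1007 in C57BLKS/J to 3689 in 129S1/SvImJ, and Stat4 from 936 in CBA/J to 2645 in JF1/Ms. The dim genes Irf4 and Eomes ran from 66.2 in MSM/Ms to 173 in A/J and from 58.3 in P/J to 122 in BALB/cByJ. The part of the A/J array with a high B cell list in the Irf4 value was not tested. In the non-domesticus strains Stat4 (0.67, limma adjusted p = 0.00692), Ahr (0.45, adjusted p = 0.00361) and Batf (0.44, adjusted p = 0.000181) were higher. The regulatory T cell list had the widest spread of these lists (median SD 0.44, 13 of 13 past the F-test), and the activated or memory list had 0.28 with 16 of 22. The lists differ in size and brightness, and no list was tested against another.

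**Figure D5:**
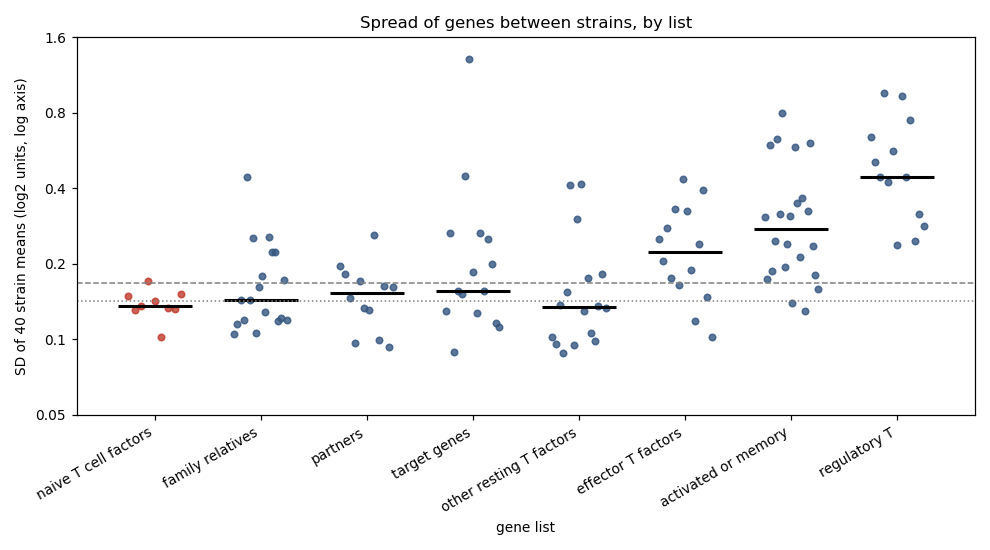
SD of the 40 strain means (log2 units, log axis) for each gene of 8 lists; points are genes, black bars are list medians, the dashed line is the median of bright probe sets (0.17) and the dotted line that of all probe sets (0.14). The 9 members (red) lie between 0.10 and 0.17, with a median of 0.14, and the regulatory T cell list has a median of 0.44.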

How the data were processed

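Log2 expression was measured in sorted splenic CD4 T cells on 82 arrays in 40 strain groups. Per the submitters' processing notes, Affymetrix Power Tools and RMA made the deposited values, which are linear intensity units per probe set; versions are not given in the sources used here. As deposited by the authors, these intensity values were converted to log2 without renormalizing or filtering. RMA compresses differences on dim probe sets. The array annotation gave 1 symbol to 21425 probe sets, several to 1399 and none to 2098; only the first were named. A probe set was called bright if its highest strain mean exceeded the median of all values.

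R 4.3.3 with limma 3.58.1 fitted 1 mean per strain over all arrays (42 residual and 8.09 prior degrees of freedom). An F-test compared strains, and each strain was set against the mean of the other 39, with Benjamini-Hochberg adjustment over all probe sets (and all 40 contrasts) at 0.05. The 4 non-domesticus strains were compared with the other 36 on strain means. Correlations had 100000 permutations, adjusted over 36 pairs and 18 list relations; the design had counted Tcf7, which had no probe set. The fits were tested on simulated data. The members, lists and comparisons were chosen with earlier results of these data known. All members were named, with their lowest and highest strains and the strains called (up to 4 each way), the 2 genes most alike, and from each related-gene list up to 4 genes past the F-test with the largest SD, to which genes called in the non-domesticus comparison, Ccr7 and S1pr1 were added after their values were seen. The number of arrays limits the precision. Probe sequences were not used here, so less RNA and a weaker signal from strain variants under the probes cannot be told apart. Some sort markers are not reported here. Alternatives covered scaling, filtering, the offset, the prior, array weights, the replicate block, left-out arrays, the probe set per gene and left-out strains.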

Additional observations from a re-analysis of the deposited data

How the results depend on the processing

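All 9 members passed the F-test in each of the 11 other settings and in each of 81 fits without a single array, where 11390 to 13402 probe sets passed. Among the settings, the mean of all probe sets of a gene cannot change a member's values, because each has a single probe set. No member was called in the non-domesticus comparison under any of 12 settings, and 1484 to 2452 probe sets were. With arrays centred on their medians, 14 member calls were made (11 lower), 20 pairs of members and 1 list relation passed; the cause was not tested. Without 3 arrays that read low in several members, 10 calls were lower. Over fits without a single array there were 22 to 30 member calls, 16 to 21 of them lower. In the other settings single-strain calls numbered 42895 to 83538 over all probe sets, and 56935 to 65901 without a single array. Leaving out C57BL/6J replicate 5, the array with the highest median, gave the 65901 calls and the 13402 probe sets past the F-test. Each of the 24 member calls was lost when at least 1 array of its own strain was left out, which leaves that strain with 1 array assumed to vary like the rest. None reversed in direction.

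Over strains, deviations of replicate 1 arrays had a median correlation of 0.00661, from -0.68 to 0.62, and 33.3% of pairs were over 0.1. Whether arrays with the same number were handled together cannot be told from these values. With the number as a replicate block 9 members and 13096 probe sets passed the F-test, against 11853 probe sets without it. In that setting 26 member calls (19 lower) were among 62790.

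Most strains had 2 arrays, so a strain mean of a member rests on 2 values. Strains share ancestry and are not fully independent in correlations. Conflicting labels leave the identity of 2 groups unknown.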
